A study of Mus musculus with 9 samples.

Results

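The genes described here encode the proteins of the mitochondrial ribosome. They were taken as the protein-coding genes whose symbol is Mrpl or Mrps followed by a digit, and 78 of the 54532 genes in the count tables met that rule. They were measured by RNA-seq in sublingual glands, the mucous salivary glands under the tongue, of wild-type mice. The series concerns the repair of salivary glands damaged by radiation. Of the 9 libraries, 3 came from glands 7 days after irradiation with 10 Gy, 3 from glands 14 days after the same dose, and 3 from controls that were not irradiated. All 3 groups carry the WT label. RNA was extracted from 4 sections of 50 µm, so each library mixes all cell types of the gland, and fewer cells of a type cannot be told apart from less RNA per cell. Age, sex and strain, and whether replicates are separate animals, are not given in the labels used here, so the p-values reflect sample-to-sample spread that could be technical in part.

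Mitochondria keep a small genome of their own, and the proteins it encodes are core subunits of the respiratory chain. A dedicated ribosome inside the organelle makes them. Its ribosomal RNAs are transcribed from the mitochondrial genome, while its proteins are encoded in the nucleus, made in the cytosol and imported, so both genomes must supply the parts of a large and a small subunit. Some of these proteins have bacterial counterparts, and others exist only in mitochondria.

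By role, 51 members belong to the large subunit and 26 to the small subunit. The remaining member, Mrps36, carries a ribosomal name and is now assigned to the 2-oxoglutarate dehydrogenase complex. Names and places differ for Mrps18a and Mrps30, which sit in the large subunit. Of the 78, 45 were taken as shared with bacteria and 32 as specific to mitochondria. The filter on low counts kept 77 members. Mrpl53 had 0 counts in each library. Its exons overlap Gm42688 on the same strand and Ccdc142os on the other strand, and the part of these overlaps in its count of 0 was not tested. Exons of 28 members overlap an opposite-strand gene, among them Mrpl12 (Gm16755), Mrpl44 (Wdfy1), Mrpl48 (Rab6a) and Mrps25 (Nr2c2). The sources used here do not say whether counting used strand, and without it the reads of such pairs cannot be told apart. The files also hold 5 processed pseudogenes named after members, which could take reads of their parent genes.

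Promoters are shown first, as a description. The members with a promoter lie on 17 chromosomes, and the part of promoters in the members' changes was not tested. RefSeq promoter windows, 250 bases before to 50 after the start on GRCm38.p6, were matched for 69 members. The 100 bases before the start are printed 5′ to 3′ on the gene's strand for 6 members: Mrpl12, Mrps21 and Mrpl34 because they are among the members with the smallest p at day 7, and Mrpl44, Mrps22 and Mrps27 because they hold a motif and had smaller changes. Capitals mark a match to GCGCANGCG, the motif of the regulator NRF1, or to CCGGAAGT, that of ETS factors such as GABPA, on either strand.
Mrpl12, chr11:120484537-120484636, plus strand: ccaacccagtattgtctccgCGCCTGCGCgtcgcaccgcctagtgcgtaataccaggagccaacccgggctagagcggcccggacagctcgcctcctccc
Mrps21, chr3:95871515-95871614, minus strand: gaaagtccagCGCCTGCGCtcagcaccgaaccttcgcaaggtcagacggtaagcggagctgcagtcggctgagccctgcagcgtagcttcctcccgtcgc
Mrpl44, chr1:79775918-79776017, plus strand: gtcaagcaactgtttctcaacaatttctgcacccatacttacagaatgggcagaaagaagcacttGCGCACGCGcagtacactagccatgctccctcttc
Mrps22, chr9:98601680-98601779, minus strand: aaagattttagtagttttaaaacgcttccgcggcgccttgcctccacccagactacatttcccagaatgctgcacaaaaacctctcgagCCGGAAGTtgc
Mrps27, chr13:99344686-99344785, plus strand: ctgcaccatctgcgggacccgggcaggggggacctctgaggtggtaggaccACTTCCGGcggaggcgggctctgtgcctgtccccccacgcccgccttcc
Mrpl34, chr8:71464826-71464925, plus strand: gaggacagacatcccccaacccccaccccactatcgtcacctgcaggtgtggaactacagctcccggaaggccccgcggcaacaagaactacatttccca

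Over the whole window, GCGCANGCG was present in 16 of 69 members (23.2%), against 13.3% of 10558 tested protein-coding genes and 6.47% of all 27025 promoters in the table. CCGGAAGT was present in 11 members (15.9%), against 8.12% of tested genes and 4.0% of all promoters. AAGATGGCG, the motif of YY1, was present in 8 members (11.6%), against 3.09% and 1.49%. At least one of these motifs was present in 33 members (47.8%), against 22.4% of tested genes and 11.04% of all promoters. TATAAA, the TATA box, was present in 4 members (5.80%), against 7.11% and 14.2%. Both strands were searched for each motif, and none of the 4 motifs is contained in another. Changes are given with and without a motif as a description. The median log2 fold change at day 7 was −0.44 in the 16 members with GCGCANGCG and −0.47 in the 52 tested members without it. It was −0.53 in the 11 members with CCGGAAGT and −0.46 in the 57 without it. A match describes the letters only and does not show binding.

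Libraries held between 15962399 and 19441239 counts, and each tested member had between 83 and 1538 counts in each library. A count of 3 was worth between 0.159 and 0.202 CPM, counts scaled to a common library total by TMM. The gland's mucin Muc19 was at 30293 to 46253 CPM in the 9 libraries. Control library 3 stood apart on principal component 3 (−41.56, against −7.604 to 25.32 in the other libraries), and its Mucl2 level was 76404 CPM, against 4425 and 7841 CPM in the other controls. Mucl2 also varied within the irradiated groups, from 39.4 to 1693 CPM at day 7 and from 200 to 14195 CPM at day 14. Results that turn on control library 3 are given with and without it. Levels between genes are compared per kilobase of exon: averaged over the 9 libraries, the 77 members ran from 1.71 to 57.8 CPM per kilobase with a median of 10.2, and the median of 13453 tested protein-coding genes was 3.98. The highest levels were those of Mrpl54 (57.8 CPM per kilobase), Mrps21 (57.0) and Mrpl34 (51.6), and the lowest those of Mrps22 (1.71), Mrps25 (2.15) and Mrps30 (2.18).

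At day 7 the mitochondrial ribosomal protein genes were lower than in controls as a group. Of 77 tested members, 54 were lower and 0 higher (edgeR quasi-likelihood test, Benjamini-Hochberg adjusted p under 0.05 over all genes tested). Among all 15348 genes tested, 14.8% were lower and 15.8% higher at that threshold. An unadjusted p under 0.05 was reached by 63 members, and the share of all genes that did so is not given here. DESeq2 also called 54 members lower and 0 higher. The log2 fold changes of all 77 lay below 0, between −0.95 and −0.0034, with a median of −0.47, where the median of all genes tested was 0.02. In 61 members the day 7 and control libraries did not overlap. The share of all genes tested without overlap is not given here, so that count describes the members only. Leaving out 1 library gave 40 to 59 members lower, with 59 when control library 3 was left out, and 37 members kept their call in every omission. Of 32 members whose exons overlap another gene 22 were lower (median −0.53), and of the other 45 members 32 were (median −0.46).

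Library by library, the members' median log2 difference from the control mean was −0.57, −0.46 and −0.43 at day 7, −0.20, −0.20 and −0.30 at day 14, and 0.11, 0.04 and −0.11 in controls. The 3 groups did not overlap, and day 14 lay between day 7 and control. Summed over the members, the level was 1787 ± 91.6 CPM at day 7, 2131 ± 71.5 CPM at day 14 and 2534 ± 198 CPM in controls (SD, n = 3 each).

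**Figure D1:**
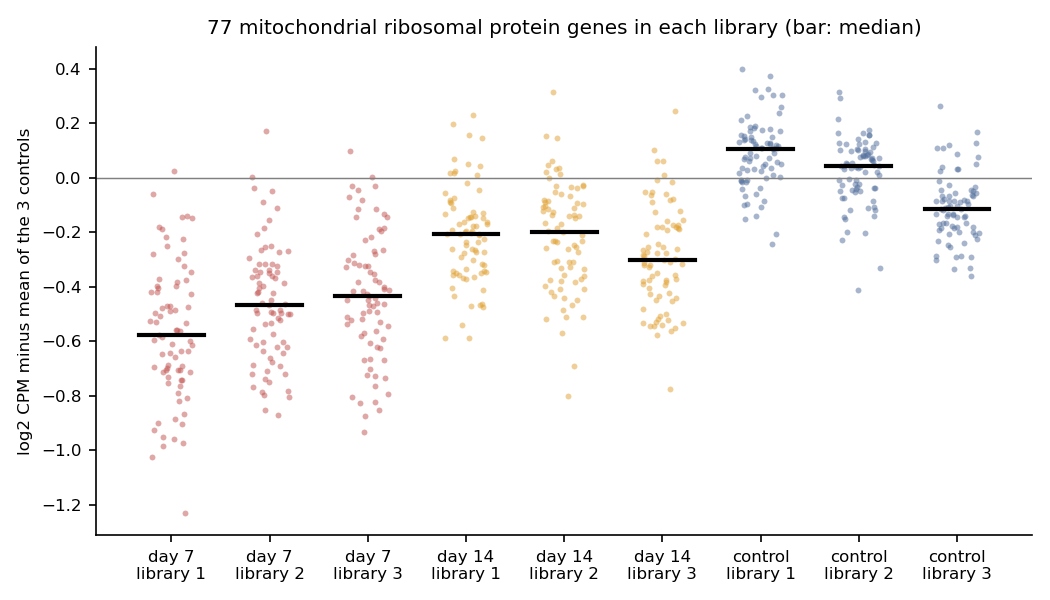
Each point is a tested member: its log2 CPM in 1 library minus its mean over the 3 controls, with libraries on the horizontal axis and the median as a bar. The medians of the day 7 libraries lie between −0.57 and −0.43, those of day 14 between −0.30 and −0.20, and those of the controls between −0.11 and 0.11.

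The members' level depended on the scale. In TPM, where each library's length-scaled values sum to the same total, the members summed to 2116 ± 86.8 at day 7, 2107 ± 76.1 at day 14 and 2138 ± 126 in controls (SD, n = 3 each), which differ by less than the spread between libraries. On that scale the median of all genes tested was itself 0.59 higher at day 7 and 0.28 higher at day 14 than in controls (log2). Relative to that shift the members' median was −0.50 at day 7 and −0.27 at day 14. All fold changes given here are on the TMM scale, so they are changes relative to most other genes and not amounts per cell.

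Both subunits were lower at day 7. In the large subunit 36 of 50 tested members were lower, with a median log2 fold change of −0.47, and in the small subunit 18 of 26, with a median of −0.49. Of members shared with bacteria 33 of 45 were lower (median −0.47), and of those specific to mitochondria 21 of 31 (median −0.46). These divisions were described and their differences were not tested.

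Mrpl54, a mitochondria-specific protein of the large subunit encoded at chr10:81264713-81266934 (GRCm38, minus strand), had the lowest fold change of the members. Its level was 27.0, 36.2 and 35.7 CPM at day 7, 45.7, 50.1 and 43.5 CPM at day 14, and 68.3, 67.3 and 55.1 CPM in controls. The 3 groups did not overlap, and the day 7 log2 fold change was −0.95 (SE 0.13, adjusted p = 4.19e-05). With offsets for the length of the principal transcript and GC content, described with transcript length further on, it was −0.20 and did not pass. Mrpl34, counterpart of a small bacterial large-subunit protein, was at 20.4, 24.0 and 22.4 CPM at day 7, 31.2, 34.3 and 28.1 CPM at day 14, and 43.8, 40.9 and 36.5 CPM in controls. Its groups were also separate, with a day 7 log2 fold change of −0.86 (SE 0.12, adjusted p = 6.34e-05). With the same offsets it was −0.13 and did not pass.

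In the stalk of the large subunit, where translation factors dock, Mrpl12 is the flexible component and has also been described as a partner of the mitochondrial RNA polymerase. It was at 23.4, 25.3 and 24.7 CPM at day 7, 32.6, 30.8 and 25.2 CPM at day 14, and 48.8, 43.8 and 37.6 CPM in controls. Its day 7 libraries lay below all controls, with a log2 fold change of −0.83 (SE 0.13, adjusted p = 0.000123), and with the principal transcript offsets it was −0.45 and still passed. Mrpl11, at the base of the stalk, was at 15.9, 17.6 and 21.8 CPM at day 7 and at 35.7, 29.8 and 23.02 CPM in controls (log2 fold change −0.68, SE 0.16, adjusted p = 0.00329). Mrpl10, which anchors Mrpl12, did not pass the test (log2 fold change −0.27, SE 0.11, adjusted p = 0.0728), with 33.6, 41.3 and 43.5 CPM at day 7 and 50.2, 48.1 and 45.0 CPM in controls.

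Other large-subunit members differed in size of change. Mrpl58, a peptidyl-tRNA hydrolase that rescues stalled ribosomes, was lower at day 7 (log2 fold change −0.57, SE 0.12, adjusted p = 0.00122). Mrpl41, specific to mitochondria, was lower (−0.73, SE 0.16, adjusted p = 0.00177), as was Mrpl44, a protein with a ribonuclease III fold (−0.40, SE 0.13, adjusted p = 0.0262). Without 1 library, Mrpl44 stayed past the threshold in 5 of 9 omissions. With principal transcript offsets Mrpl58 was −0.55 and passed, while Mrpl41 was −0.19 and Mrpl44 −0.10, and neither passed. Mrps30, a large-subunit protein despite its name, did not pass (−0.36, SE 0.16, adjusted p = 0.0938). It passed as lower with either kind of length offset, at −0.78 for exonic length and −0.68 for the principal transcript.

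In the small subunit, Mrps21 had the smallest adjusted p of all members at day 7. It was at 29.9, 30.5 and 32.2 CPM at day 7, 40.3, 39.1 and 39.4 CPM at day 14, and 60.2, 57.9 and 49.7 CPM in controls. No library of 1 group overlapped another group, and the day 7 log2 fold change was −0.86 (SE 0.11, adjusted p = 2.92e-05). With principal transcript offsets it was −0.05 and did not pass. Mrps12, counterpart of a protein of the bacterial decoding centre, was lower as well (−0.62, SE 0.13, adjusted p = 0.00115), and so was Mrps28 (−0.73, SE 0.13, adjusted p = 0.000455). With principal transcript offsets they were −0.09 and −0.16, and neither passed. Mrps22 and the RNA-binding pentatricopeptide-repeat protein Mrps27 did not pass, at −0.14 (SE 0.20, adjusted p = 0.63) and −0.46 (SE 0.19, adjusted p = 0.0806).

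Mrps18a, Mrps18b and Mrps18c encode paralogs of the same bacterial protein. Mrps18a was at 36.1, 38.4 and 38.5 CPM at day 7 and at 55.4, 56.2 and 51.0 CPM in controls, without overlap (log2 fold change −0.52, SE 0.10, adjusted p = 0.00077). Mrps18c was at 8.58, 8.52 and 10.1 CPM at day 7 and at 12.1, 15.5 and 14.4 CPM in controls (−0.63, SE 0.16, adjusted p = 0.00652). Mrps18b was at 10.4, 7.91 and 10.9 CPM at day 7 and at 12.6, 8.09 and 10.4 CPM in controls, and its groups overlapped (−0.09, SE 0.19, adjusted p = 0.759). With principal transcript offsets Mrps18a was −0.0076, Mrps18c −0.15 and Mrps18b 0.33, and none of the 3 passed. The difference between the paralogs was not tested. Mrps36, the dehydrogenase component, did not pass (−0.30, SE 0.16, adjusted p = 0.159).

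**Figure D2:**
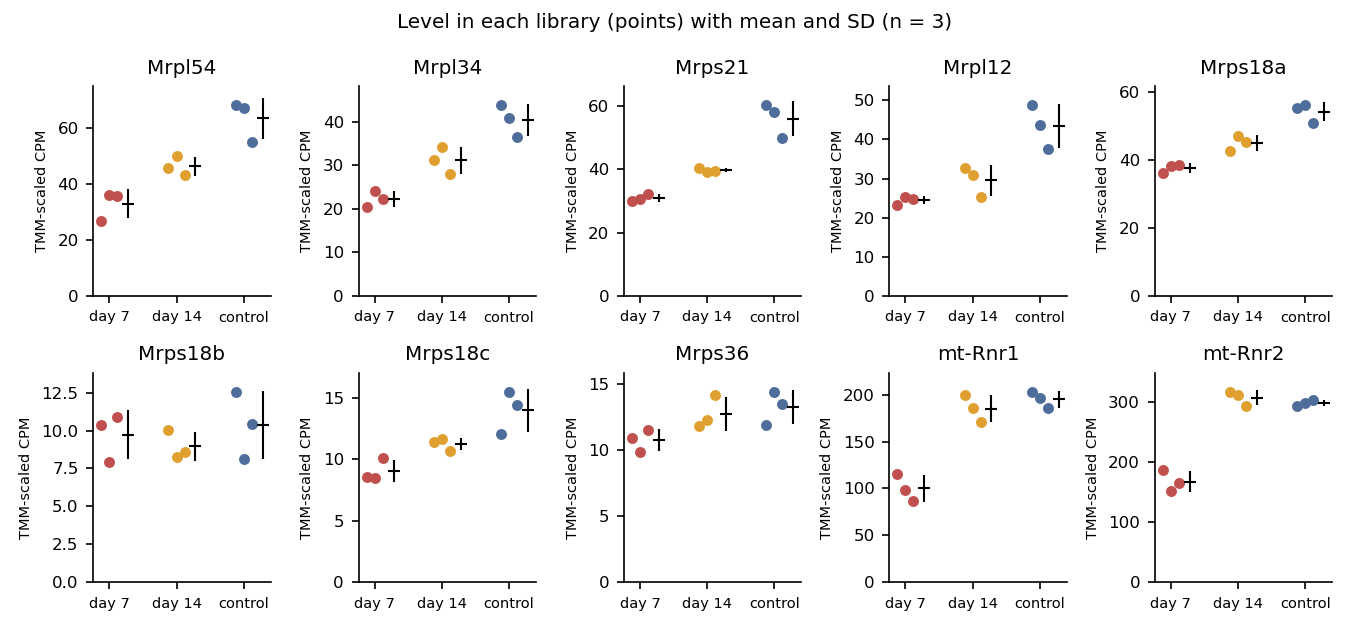
TMM-scaled CPM of 8 members and of both mitochondrial ribosomal RNAs in each library (points) with the mean and SD of 3 libraries. Mrpl54, Mrpl34 and Mrps21 show 3 separate groups with day 7 lowest, Mrps18b shows overlapping groups, and the ribosomal RNAs are lowest at day 7, with day 14 near the controls.

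Day 14 lay closer to controls. Mrpl12 (log2 fold change −0.55, SE 0.13, adjusted p = 0.035) and Mrps21 (−0.50, SE 0.10, adjusted p = 0.0303) were lower, 0 members were higher, and 75 did not pass. Among all genes tested 0.632% were lower and 1.13% higher. In bins of genes of similar length, described further on, 1.68% of genes on average were lower. The median of the members was −0.25, against 0.01 for all genes, and 73 of 77 lay below 0. An unadjusted p under 0.05 was reached by 32 members, and the share of all genes that did so is not given here. DESeq2 called 12 members and 451 of all 15348 genes lower. The edgeR count rests on single libraries, for all genes as well as for the members. Without control library 3 it was 22 members and 835 of 15758 genes. Without control library 1 or 2 or any 1 of the day 14 libraries it was 0 members and 6 to 18 genes.

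Between the irradiated groups, 4 members were higher at day 14 than at day 7 and 0 were lower, where 3.72% of all genes tested were higher and 2.87% lower. They were Mrpl34 (log2 fold change 0.49, SE 0.12, adjusted p = 0.0211), Mrpl54 (0.49, SE 0.13, adjusted p = 0.0236), Mrps28 (0.45, SE 0.13, adjusted p = 0.0449) and Mrps21 (0.36, SE 0.11, adjusted p = 0.0475). The members' median was 0.26, against 0.0014 for all genes, and 73 of 77 lay above 0. Each of the 4 lost its call in at least 1 omission of a library. In bins of genes of similar length, described further on, 7.78% of genes on average were higher. The comparison shares its day 7 libraries with day 7 against control and its day 14 libraries with day 14 against control, so the 3 are not independent.

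**Figure D3:**
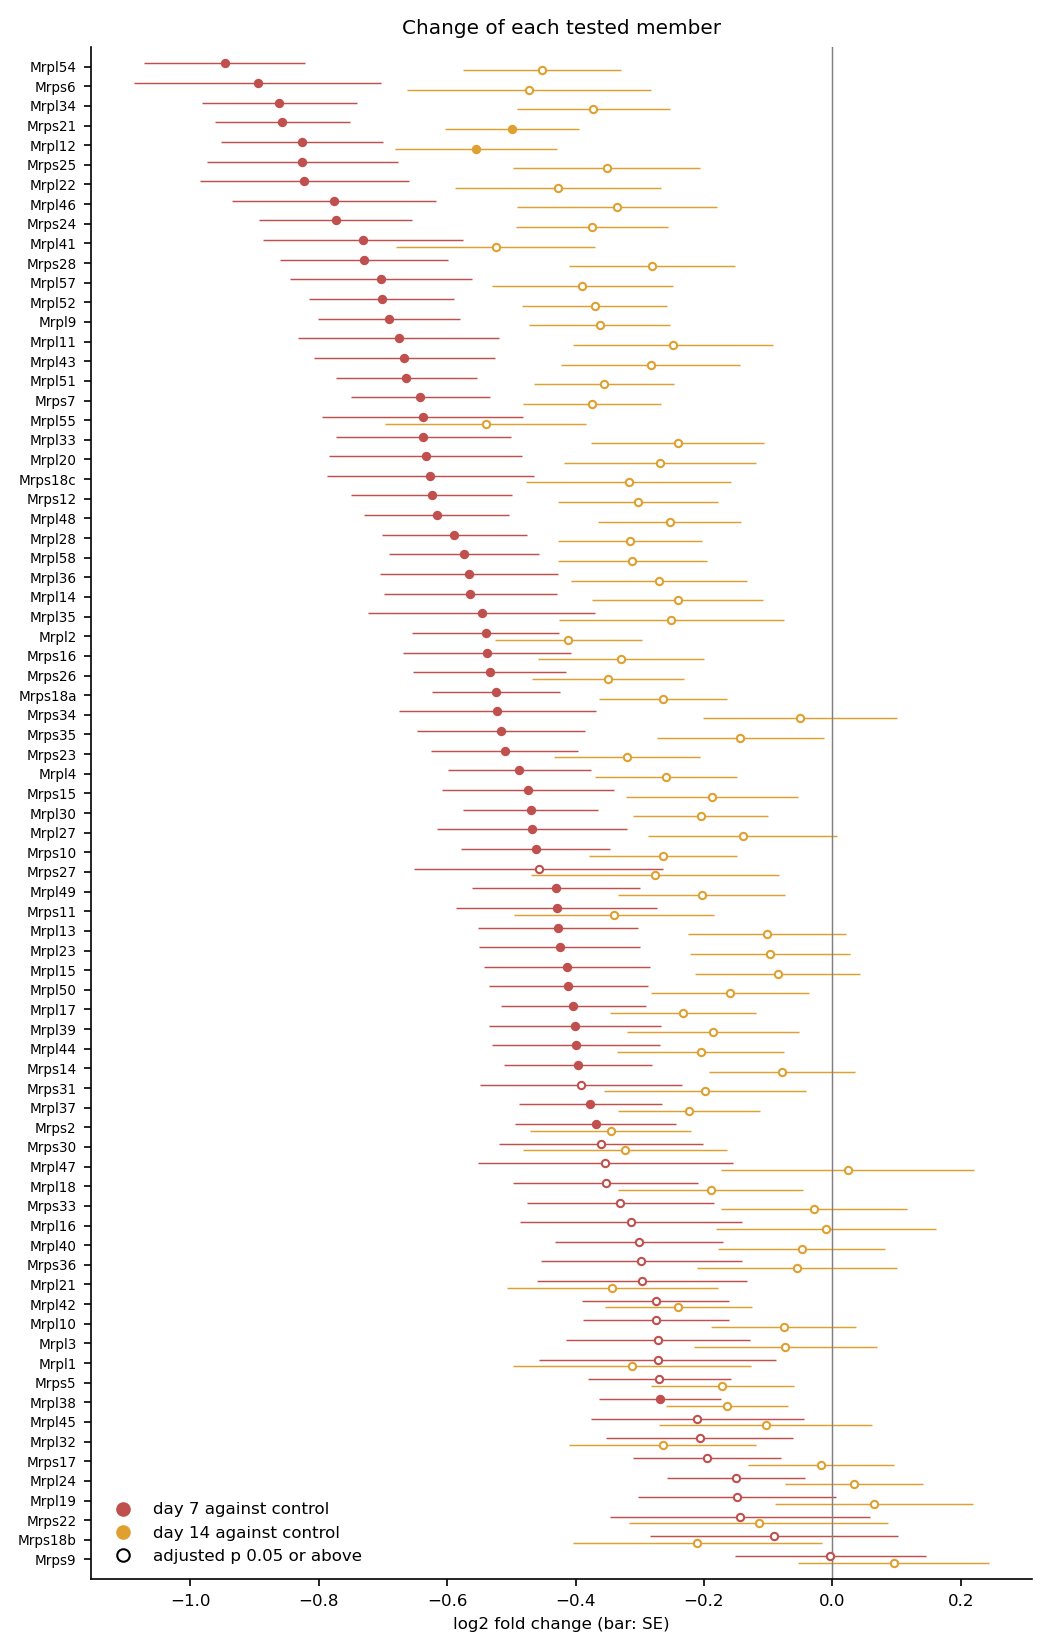
Log2 fold change against control of the 77 tested members, ordered by the day 7 value, with day 7 and day 14 as points and SE as bars. Filled points have an adjusted p under 0.05. Day 7 has 54 filled points, and day 14 has those of Mrpl12 and Mrps21.

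Transcript length moved with these changes. At day 7 the log2 fold change of protein-coding genes went with exonic length (Spearman's rho 0.51 over 13453 genes, and 0.45 over the 77 members, as descriptions across genes that share libraries), short genes being lower. In the shortest members, from 607 to 1667 bases of exon, 23 of 26 were lower with a median of −0.64. In those of middle length, from 1693 to 3291 bases, 16 of 25 were lower (median −0.41), and in the longest, from 3332 to 8631 bases, 15 of 26 (median −0.41).

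Each member was therefore set against tested protein-coding genes of its own length, in bins of 672 or 673 genes. At day 7, 65 of 77 members lay below the median of their bin, with a median difference of −0.26, and on average 27.5% of the genes in the members' bins were lower. At day 14, 61 lay below their bin (median difference −0.14), and on average 1.68% of the genes in the members' bins were lower. For day 14 against day 7, 59 lay above it (median difference 0.11), and on average 7.78% of the genes in the members' bins were higher. Farthest below genes of their length at day 7 were Mrps25, a small-subunit protein specific to mitochondria (difference −1.02), and the large-subunit members Mrpl48 (−0.91) and Mrpl33 (−0.85), and farthest above were Mrps36 (0.26), Mrps18b (0.25) and Mrpl10 (0.15).

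Exons of all transcripts together overstate the length of some mature messages. Mrpl33 spans 7326 bases of exon and 478 bases in its principal transcript. By principal transcript length, 57 members lay below their bin at day 7 with a median difference of −0.16, and 34.1% of the genes in those bins were lower. Matched on principal transcript length and mean expression together, 55 lay below and 22 above (median difference −0.18), and 42.9% of the genes in those bins were lower. With offsets for exonic length and GC content, 46 members were lower and 0 higher at day 7 (median −0.44), where 14.0% of all genes were lower and 7.64% higher, and 38 of the 54 kept their call. The 8 newly called were Mrpl1, Mrpl3, Mrpl32, Mrpl42, Mrps5, Mrps17, Mrps30 and Mrps31. With offsets for principal transcript length and GC content, 27 were lower and 0 higher (median −0.19), where 10.2% of all genes were lower and 7.09% higher. Of the 54 members, 20 kept their call, and 7 others were newly called. In that fit 61 members lay below 0 and 16 above. With exonic length and GC offsets, day 14 had 1 member lower, Mrpl51, against 0.554% of all genes lower and 0.417% higher. Day 14 against day 7 had 5 members higher, Mrpl13, Mrpl33, Mrpl48, Mrps25 and Mrps35, against 3.64% of all genes higher and 2.35% lower.

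**Figure D4:**
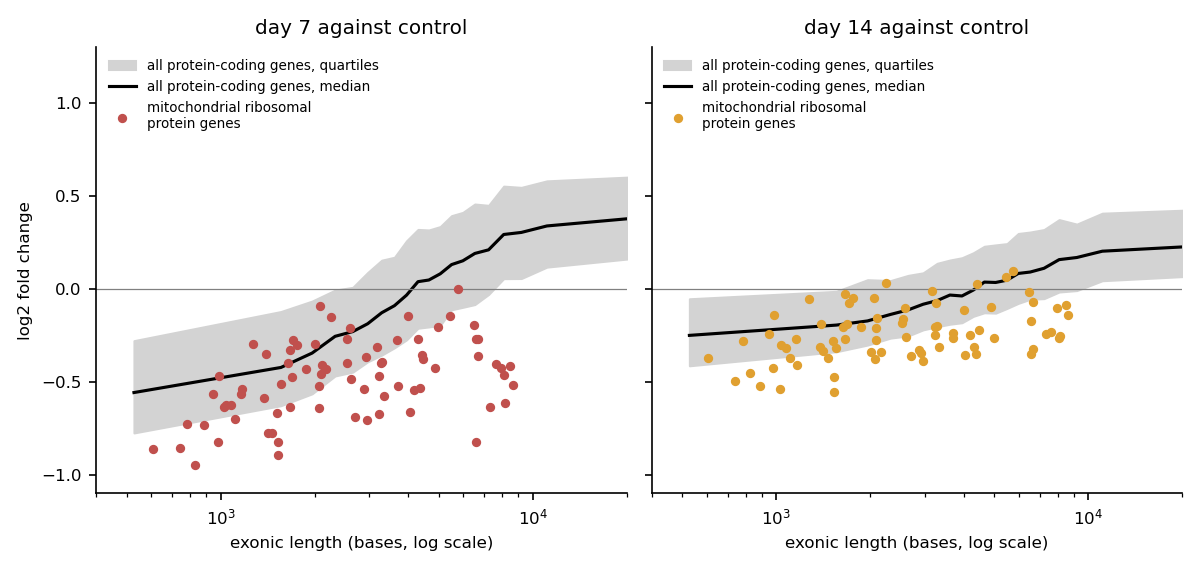
Log2 fold change against exonic length on a log scale for day 7 (left) and day 14 (right). Points are the 77 members, and the line and band are the median and quartiles of all tested protein-coding genes by bin of length. At day 7, 65 members lie below the median of their bin, and at day 14, 61.

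Partners of the mitochondrial ribosome were read from lists chosen by function, with the counts of the same test, to be read against the 14.8% of all genes lower and 15.8% higher at day 7. Both mitochondrial ribosomal RNAs were lower at day 7: mt-Rnr1 averaged 100.2 CPM at day 7, 185 CPM at day 14 and 195 CPM in controls (log2 fold change at day 7 −0.96, SE 0.10, adjusted p = 9.67e-06), and mt-Rnr2 167 CPM at day 7, 307 CPM at day 14 and 298 CPM in controls (−0.83, SE 0.09, adjusted p = 1.02e-05). Both were higher at day 14 than at day 7, by 0.88 and 0.87 (adjusted p = 5.59e-05 and 1.46e-05). The 2 summed to 250 to 302 CPM at day 7 and 488 to 497 CPM in controls. The 13 mitochondrially encoded genes of the respiratory chain summed to 21514 to 24750 CPM at day 7 and 24385 to 26116 CPM in controls. The part of library preparation in the low level of the ribosomal RNAs, and in its change, was not tested. Of 5 ribosomal proteins with other names, Aurkaip1 (−0.58, SE 0.10, adjusted p = 0.000465), Chchd1 (−0.71, SE 0.16, adjusted p = 0.00332) and Gadd45gip1 (−0.39, SE 0.14, adjusted p = 0.0466) were lower at day 7, while Dap3 and Ptcd3 did not pass. With exonic length and GC offsets Gadd45gip1 was −0.19 (adjusted p = 0.363).

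Genes that build and run the ribosome follow. Of 24 assembly factors 5 were lower at day 7 and 0 higher (median −0.25), led by Mpv17l2 (−0.68, SE 0.11, adjusted p = 0.000203). Of 15 translation factors 3 were lower and 0 higher (median −0.07), namely the elongation factor Tufm (−0.36, SE 0.11, adjusted p = 0.0197), the recycling factor Mrrf (−0.45, SE 0.16, adjusted p = 0.0363) and the initiation factor Mtif3 (−0.41, SE 0.15, adjusted p = 0.0493). With exonic length and GC offsets Tufm was −0.11 (adjusted p = 0.528). With principal transcript offsets 1 assembly factor and 1 translation factor were lower. Of 17 mitochondrial tRNA synthetases, Sars2 was lower and Iars2 higher (median for the list −0.08). With exonic length and GC offsets neither passed (Iars2 0.09, adjusted p = 0.624, and Sars2 −0.38, adjusted p = 0.115), and 3 synthetases were lower and 0 higher. Of 11 genes of mitochondrial genome transcription and copying, Lrpprc, which stabilises mitochondrial messages, and Ssbp1 were lower at day 7, and Lrpprc was also lower at day 14 (−0.75, SE 0.11, adjusted p = 0.0048). Among 9 regulators of biogenesis, Gabpa was higher (0.76, SE 0.18, adjusted p = 0.00508) and Esrra lower (−0.43, SE 0.11, adjusted p = 0.00807) at day 7.

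The respiratory chain, some of whose subunits this ribosome makes, and the cytosolic ribosome were set beside it. Of 28 nuclear genes of the respiratory chain 22 were lower and 0 higher (median −0.56), led by Ndufa2 (−0.92, SE 0.13, adjusted p = 5.13e-05). With principal transcript offsets 6 were lower. Of the 13 mitochondrially encoded ones 7 were lower, 5 did not pass and mt-Nd5 was higher (0.83, SE 0.11, adjusted p = 4.29e-05). With principal transcript offsets 3 of the 13 were lower and 2 higher. All 30 cytosolic ribosomal protein genes were lower (median −0.66), and 14 of 30 were with principal transcript offsets. At day 14 against day 7, 22 of the 30 were higher, 6 with exonic length and GC offsets, and 3 to 28 when 1 library was left out. Of 20 matrix and outer membrane genes, 9 were lower and 1 higher (median −0.22). At day 14 against control, 2 respiratory chain genes of the nucleus and 2 cytosolic ribosomal protein genes were lower, and mt-Nd5 was higher (0.51, SE 0.11, adjusted p = 0.032). Among all genes tested 0.632% were lower and 1.13% higher in that comparison. With exonic length and GC offsets mt-Nd5 was 0.32 and did not pass (adjusted p = 0.108). In that fit 2 mitochondrially encoded genes were lower and 0 higher. At day 14 against day 7, 6 of the 28 nuclear respiratory chain genes were higher, and 1 with exonic length and GC offsets. Among all genes tested 3.72% were higher in that comparison, and 3.64% with those offsets. Without control library 3, 17 nuclear respiratory chain genes and 28 cytosolic ribosomal protein genes were lower at day 14 than in controls. Of all genes, 835 of 15758 were lower in that fit, against 97 of 15348 with all libraries. Over all omissions of 1 library the counts in these 2 lists ran from 0 to 17 and from 0 to 28.

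**Figure D5:**
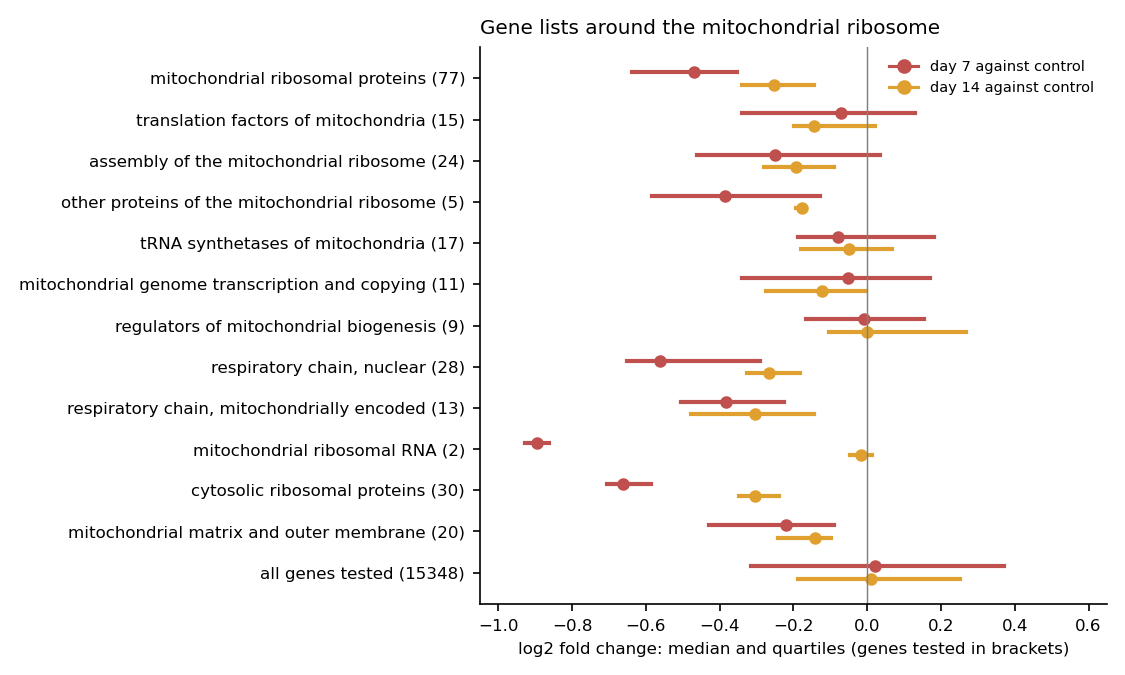
Median (point) and quartiles (line) of the log2 fold change at day 7 and day 14 against control in each list, with the number of genes tested in brackets. At day 7 the mitochondrial ribosomal proteins (median −0.47) lie near the nuclear respiratory chain genes (−0.56), below the translation factors (−0.07) and all genes tested (0.02).

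Markers of the gland's cell types moved across the same libraries. The summed level of 9 acinar markers was 108934 to 114087 CPM at day 7, 140559 to 145369 CPM at day 14 and 143461 to 198791 CPM in controls. Singly, 6 of the 9 were lower at day 7, and the channel Ano1 (0.78, SE 0.10, adjusted p = 4.11e-05) and the cotransporter Slc12a2 (0.69, SE 0.17, adjusted p = 0.00877) were higher. That of 6 cycling-cell markers was 74.7 to 122 CPM at day 7, 12.7 to 28.05 CPM at day 14 and 7.01 to 13.6 CPM in controls. For 6 fibroblast markers it was 407 to 494 CPM at day 7, 397 to 507 CPM at day 14 and 354 to 382 CPM in controls, and for 5 endothelial markers 410 to 493 CPM at day 7, 391 to 433 CPM at day 14 and 330 to 372 CPM in controls. For 6 macrophage markers it was 74.99 to 107 CPM at day 7, 165 to 199 CPM at day 14 and 130 to 152 CPM in controls. For 5 markers of submandibular granular ducts it was 12.3 to 13.9 CPM at day 7, 15.4 to 18.9 CPM at day 14 and 20.4 to 45.6 CPM in controls. For 5 markers of B and plasma cells it was 38.6 to 74.5 CPM at day 7, 38.4 to 187 CPM at day 14 and 78.1 to 252 CPM in controls. No marker of any list was at 0 in all libraries. Their part in the members' changes was not tested.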

How the data were processed

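RNA-seq of 9 mouse sublingual gland libraries was deposited by the authors as raw whole-number counts per gene. STAR, featureCounts, DESeq2 and mm10 are named per the submitters' processing notes, and the sources used here give no versions, annotation or strand setting. Genes were named from GENCODE M21 on GRCm38 (54495 of 54532 identifiers matched), and promoters came from RefSeq (GRCm38.p6). Counts were tested with edgeR 4.0.16 in R 4.3.3: filterByExpr (15348 genes kept, 39184 removed), TMM scaling, then a two-sided quasi-likelihood F test on all 9 libraries in a design of 3 groups with 6 residual degrees of freedom, with Benjamini-Hochberg adjustment over all genes tested and a threshold of 0.05. The SE is the absolute log2 fold change divided by the square root of F. Length and GC offsets were smooth fits with mgcv 1.9.3. The code was tested on simulated data. DESeq2 1.42.0 was an alternative, and the others are given in the closing section. Those using principal transcript length (APPRIS) were chosen after seeing the data.

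The members and lists were chosen with earlier results of these data known. Named members were those of smallest p in each direction (4 per comparison), the 3 highest and 3 lowest levels, the 3 farthest above and below genes of their length at day 7, and 12 fixed by role. Mrpl51, Mrpl13, Mrps35, the 8 newly called members, Ano1, Slc12a2, the listed overlaps and the gene pairs of Mrpl53 were named after their values were seen. Within groups no 2 libraries were as alike as sampling noise allows (chi-square per degree of freedom 9.191 to 123.7). Precision given by counts covers counting error only.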

Additional observations from a re-analysis of the deposited data

Results flagged for a closer look

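The changes of 4 members against control differed between the irradiated groups by a test of that difference itself, edgeR's comparison of day 14 with day 7. The log2 fold changes, day 14 over day 7, were 0.49 for Mrpl34, 0.49 for Mrpl54, 0.45 for Mrps28 and 0.36 for Mrps21. With length and GC offsets none of these 4 passed, and 0 of the 4 kept the call in every omission of 1 library. Among all genes tested 3.72% were higher in this comparison, and 7.78% on average in the members' length bins.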

How the results depend on the processing

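At day 7 the members' median stayed below 0 under each alternative run, while 16 members lay above 0 with principal transcript offsets. Members lower numbered 27 (median −0.19) with principal transcript offsets, and 40 to 59 over omissions of 1 library (median −0.54 to −0.45). The median difference from the bin was −0.16 by principal transcript length and −0.48 by expression, and −0.29 to −0.22 over omissions (62 to 67 members below). For day 14 against control, members lower numbered 12 with DESeq2, 9 with no filter, 1 with either length offset, with only the 6 samples compared or with the block and offsets, 0 at an adjusted p under 0.01, and 0 to 22 over omissions (median −0.33 to −0.21). The median was −0.14 with principal transcript offsets. Of all genes, 451 were lower at day 14 with DESeq2, 375 with no filter and 6 to 835 over omissions. The difference from the bin was −0.26 by expression, and −0.18 to −0.13 over omissions (58 to 65 members below). For day 14 against day 7, members higher numbered 7 with DESeq2 or only the 6 samples, 8 with no filter, 2 with DESeq2 size factors or TMM without the 20 most abundant genes, 0 at an adjusted p under 0.01, and 0 to 7 over omissions (median 0.23 to 0.28). The median was 0.084 with principal transcript offsets. Of all genes, 769 of 15348 were higher in this comparison with DESeq2, 749 of 14907 with only the 6 samples and 765 of 27378 with no filter. With DESeq2 size factors 518 were higher, without the 20 most abundant genes 519, and over omissions 208 to 739. By expression 4 members lay below the bin (difference 0.26), and over omissions 14 to 21 did (0.10 to 0.14). The other lists, whose sizes are given above, are pooled here. They include the 30 cytosolic ribosomal protein genes, all 30 of which were lower at day 7 in the main fit. In these lists, at day 7 genes lower numbered 41 with principal transcript offsets (69 to 87 over omissions) and higher 2 with exonic offsets, with or without the block (2 to 6). At day 14 genes lower numbered 39 with DESeq2, 24 with no filter, 10 with DESeq2 size factors or without the 20 most abundant genes, 3 with principal transcript offsets or the block and offsets, and 2 with the 6 samples or the block (1 to 57 over omissions). Genes higher numbered 2 with DESeq2 or no filter and 0 with offsets of either kind or the block and offsets (0 to 2). For day 14 against day 7 genes higher numbered 13 with exonic offsets, 12 with the block too and 7 with principal transcript offsets (6 to 42), and lower 0 with the block (0 to 3). Of all 15348 genes, 1570 were lower at day 7 with principal transcript offsets, and 1513 to 2590 genes over omissions. At day 14, 136 of all genes were lower with DESeq2 size factors and 135 without the 20 most abundant genes. For day 14 against day 7, 558 of all genes were higher with exonic offsets and 493 with principal transcript offsets. Mrpl33 at day 7 turned to 0.069 and Mrps21 at day 14 against day 7 to −0.13 with principal transcript offsets. The cause of these moves was not tested.

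Libraries with the same replicate number showed no strong shared deviation from their group means (correlations −0.112 to 0.0367). Such correlations cannot show that no pairing exists, and the labels name none. With the replicate block 53 members were lower at day 7, 2 at day 14, and 3 higher at day 14 against day 7. Of 1197 values of named members under the alternatives, 1090 kept their side of the threshold, 74 lost the call, 31 gained it and 2 reversed from a call. In all 26 had the opposite sign, 24 of them called in neither setting. The biological coefficient of variation was 16.1%, and 3 libraries a group limit the precision.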
